A study of Mus musculus with 6 samples.

Results

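Hox genes encode homeodomain transcription factors that give cells a position along the head-to-tail axis of the embryo. The mouse keeps them in 4 clusters, named A to D, in which genes of the same paralog number descend from one ancestral gene. Within a cluster the genes stand in the order of their numbers: low numbers are used from the hindbrain downwards, high numbers in the lumbar region, limbs, genital tract and tail. Many adult and juvenile tissues, the connective tissue of the urogenital tract among them, keep a Hox profile that reflects where they arose, and loss of Hoxa10 or Hoxa11 is known to disturb descent of the testis.

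The Hox genes were taken as every row of the deposited table whose symbol is Hox, a cluster letter and a number in that spelling, which gave 38 of 22274 rows: 11 in cluster A, 10 in B, 8 in C and 9 in D. Their gene IDs showed that 36 of these rows are Hox genes. The other 2 are gene models that the reference names Gm28230 and Gm28308 and that the deposited table lists as a second Hoxd4 and a second Hoxa2. A further 3 Hox genes, Hoxa5, Hoxc6 and Hoxd11, are spelled in capitals in the table and lie outside the rule. They are described with the others, which makes 41 rows in all for the 39 mouse Hox genes, and counts are given for the 38 rows unless stated. By the GENCODE M21 annotation of GRCm38, cluster A lies on chromosome 6, B on 11, C on 15 and D on 2.

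Messenger RNA was sequenced from whole testes labelled day 9, with 3 control libraries and 3 libraries of a germ-cell conditional Dcaf2 knockout (cKO). The cKO was made by crossing Dcaf2 fl/fl mice with Stra8-Cre mice, in which the Stra8 promoter drives Cre in germ cells before meiosis; every other cell type of the testis is in the library too. The control genotype is labelled only as control, and the labels do not say whether each library comes from a separate animal; p-values therefore reflect differences among these 6 libraries, some of which may be technical. Libraries held 15407007 to 18372964 counts, and CPM is the count scaled to library size, with 1 count worth 0.0528 to 0.0664 CPM. The targeted transcript, listed as Dtl, was at 42.6, 50.3 and 77.4 CPM in controls and 41.7, 43.8 and 51.5 CPM in cKO libraries. Intact and deleted transcripts are summed in these counts, so they do not check the deletion. Markers of germ cells were lower in the cKO testes: 17 of 18 pan-germ-cell markers fell, against 13.9% of all 14424 tested genes. Their summed level was 1640 to 2132 CPM in controls and 586 to 750.3 CPM in cKO libraries. In bulk RNA, fewer cells of a type and less RNA per cell cannot be told apart.

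Summed over the clusters, Hox transcripts of the day 9 testes were concentrated in paralogs 8 to 10, and levels dropped after number 10. Levels of different genes are compared as deposited FPKM, which allow for gene length and library size. Paralogs 8, 9 and 10 together made up 70.2% of the summed Hox FPKM on average, with a range of 68.3% to 72.1% over the 6 libraries. Hoxd8, Hoxd9 and Hoxd10 alone made up 51.0% on average. In clusters A and C the highest means were those of Hoxa7 and Hoxc6, outside these paralogs. Hoxd8, Hoxd9 and Hoxd10 stood highest, at means of 14.2, 12.6 and 6.87 FPKM over all libraries, followed by Hoxb9 at 6.79, Hoxc6 at 4.53 and Hoxd4 at 3.05 FPKM. Hoxd8 and Hoxd9 overlapped in range (10.2 to 16.8 and 9.26 to 15.6 FPKM), Hoxd9 lay above Hoxd10 (3.94 to 8.10 FPKM) in range, Hoxd10 and Hoxb9 overlapped, and Hoxb9 (5.69 to 8.03 FPKM) lay above Hoxc6 (2.91 to 5.37 FPKM). From Hoxc6 downwards, every gene's range overlapped that of the next in order. Among all 41 rows, 12 had a mean of at least 1 FPKM, 17 lay between 0.1 and 1 FPKM, 9 were lower still, and Hoxc12, Hoxd12 and Hoxd13 had no count in any library.

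The step after paralog 10 was seen in each cluster that has both neighbours. Hoxd10 had 1256 counts over the 6 libraries and Hoxd11, the next gene in the cluster, had 19, with 0.10 to 0.31 FPKM. Hoxc10 was at 1.27 to 1.87 FPKM and Hoxc11 at 0 to 0.24 FPKM. In cluster A the step was small and Hoxa10 itself was low: 0.09 to 0.46 FPKM against 0 to 0.05 FPKM for Hoxa11. Cluster B has no paralogs 10 to 12; Hoxb9 had 1730 counts and Hoxb13 had 22. All 9 genes of paralogs 11 to 13, which pattern the distal limb, the tail and the lower genital tract, were too low to be tested. At the other end, Hoxb1, which acts in the hindbrain, and Hoxd1 had 5 and 11 counts over all libraries.

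**Figure D1:**
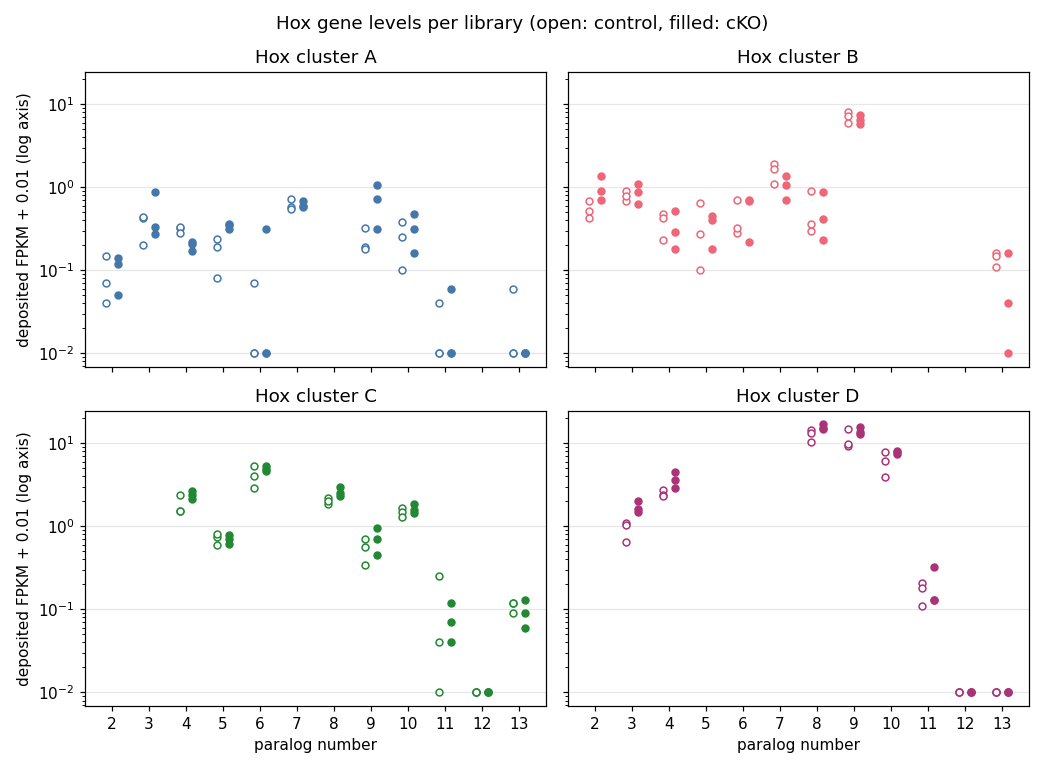
Deposited FPKM of the Hox genes of paralogs 2 to 13 in each library, by cluster (panel) and paralog number (horizontal axis); the vertical axis is logarithmic and shows FPKM + 0.01, so a gene without counts sits at 0.01. Open points are the 3 control and filled points the 3 cKO libraries; Hoxd8, Hoxd9 and Hoxd10 stand highest and the genes of paralogs 11 to 13 lie at 0.31 FPKM or below.

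The clusters contributed very unequally. Cluster D held 55.0% to 66.5% of all Hox counts of a library, cluster B 14.5% to 22.8%, cluster C 14.7% to 18.9% and cluster A 2.90% to 4.70%. Cluster D summed to 90.1, 62.1 and 69.7 CPM in controls, against 96.6, 101 and 107 CPM in cKO libraries. Each cKO library was above each control, and control library 1 lay nearer to the cKO libraries than to the other two controls. Cluster C summed to 21.5, 21.4 and 17.1 CPM in controls and 23.7, 26.2 and 25.8 CPM in cKO libraries, again without overlap. Cluster B did not separate, with 30.2, 25.8 and 22.8 CPM in controls and 24.5, 29.9 and 23.2 CPM in cKO libraries, nor did cluster A, which ran from 3.74 to 7.05 CPM. As a share of all Hox counts, which does not depend on library scaling, cluster B was at 20.7%, 22.8% and 19.9% in controls and 16.2%, 18.2% and 14.5% in cKO libraries. The shares of cluster D overlapped, at 61.6%, 55.0% and 60.6% in controls and 63.9%, 61.5% and 66.5% in cKO libraries. Those of clusters A and C overlapped too. These sums and shares are given as values, without a test, and the sums with scaling over all genes only.

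**Figure D2:**
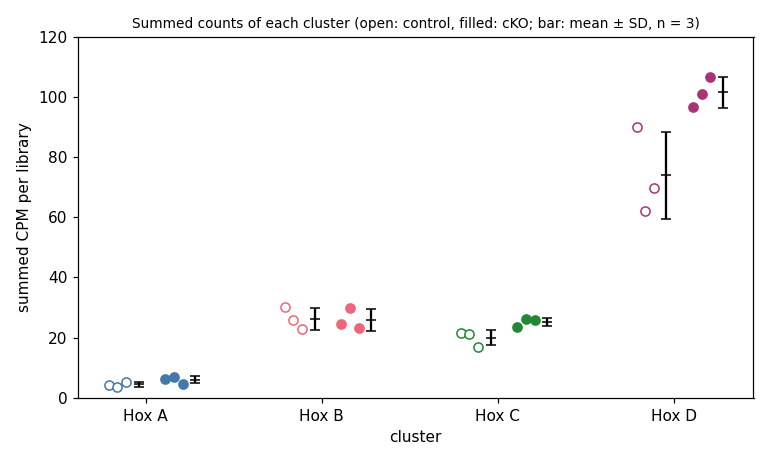
Summed CPM of each Hox cluster per library (41 rows; open points control, filled points cKO, bars mean ± SD of 3 libraries). With scaling over all genes, cluster D lies at 62.1 to 90.1 CPM in controls and 96.6 to 107 CPM in cKO libraries. The groups overlap in clusters A and B.

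The comparison of cKO with control asked how Hox transcripts stood in a testis short of germ-cell RNA. Of the 38 rows, 23 passed the filter on low counts and were tested, and with Hoxc6 there were 24. Hoxd3, Gm28230 and Hoxa9 rose and none fell, 3 of 23 (edgeR quasi-likelihood test, Benjamini-Hochberg adjusted p under 0.05). The background was 25.0% of all 14424 tested genes in either direction, 11.1% for higher and 13.9% for lower, so the Hox share lies below the background for either direction and close to that for higher genes. Among all tested genes 1599 were higher and 2008 lower; with total-count scaling the split was 1109 and 2424, and with scaling on somatic-cell marker genes it was 92 and 6259. The median log2 fold change of the 23 rows was 0.26, beside 0.03 for all tested genes. It was 0.30 with Hoxc6 added and 0.25 without the overlapping models Gm28230 and Gm28308. Before adjustment, 6 of 23 rows had p under 0.05, against 39.1% of all tested genes. For 6 of 23 rows every cKO library was above every control, where the background was 22.5%, and for 0 of 23 every cKO library was below, where it was 22.1%.

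Several lists of somatic-cell markers were higher in sum in the cKO libraries, while others overlapped or were lower. Their counts of called markers stand beside 11.1% of all tested genes called higher and 13.9% called lower. The 2 of 12 of the peritubular myoid and macrophage lists lie near the share for higher genes. The summed level of 13 stroma markers was 7730 to 9237 CPM in controls and 11740 to 12201 CPM in cKO libraries, with 6 of 13 called higher and 0 lower. Leydig cell markers summed to 689 to 1214 and 1350 to 1392 CPM (3 of 10 tested higher), peritubular myoid markers to 1935 to 2014 and 2108 to 2168 CPM (2 of 12 higher), and endothelial markers to 298 to 331 and 407 to 435 CPM (5 of 12 higher). Sertoli cell markers overlapped in sum, at 6154 to 8149 and 8012 to 8896 CPM, with 9 of 18 higher and 1 lower. Schwann cell and nerve markers summed to 204 to 240 and 264 to 272 CPM (2 of 7 tested higher, 1 lower) and mesothelium markers to 276 to 280 and 322 to 370 CPM (0 of 8 called). Markers of the excurrent ducts, tissues that are rich in Hox transcripts, summed to 71.8 to 91.7 CPM in controls and 58.9 to 70.9 CPM in cKO libraries. Of 10 tested genes of that list 1 was lower and 0 higher, and their median log2 fold change was 0.16, so the sum does not stand for the list. The epididymal genes Adam7, Crisp1, Lcn5, Lcn8 and Lcn9 were at 0 in all libraries. No marker of the skeletal muscle list was called higher and 2 of 8 were lower, and the adipocyte list had 1 of 3 tested genes higher. Macrophage markers had 2 of 12 higher, at 123 to 161 and 173 to 221 CPM; erythroid markers had 0 of 5 called, at 166 to 659 and 227 to 435 CPM. The part of these cell types in the Hox values was not tested.

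When libraries were scaled on 64 tested somatic marker genes instead of all genes, the median of all tested genes shifted by -0.38 on the log2 scale, to -0.36. The Hox median then stood at -0.11, which is 0.25 above the median of all genes, beside 0.24 with the main scaling. Neither Hoxd3, Gm28230 nor Hoxa9 passed in that setting (log2 fold changes 0.52, 0.66 and 0.86, adjusted p = 0.131, 0.0895 and 0.121), and Hoxb9 was called lower (-0.47, adjusted p = 0.0360). The direction of 9 other tested Hox rows with a positive value, Hoxd8 among them, turned negative there; their values stand under the processing alternatives.

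**Figure D3:**
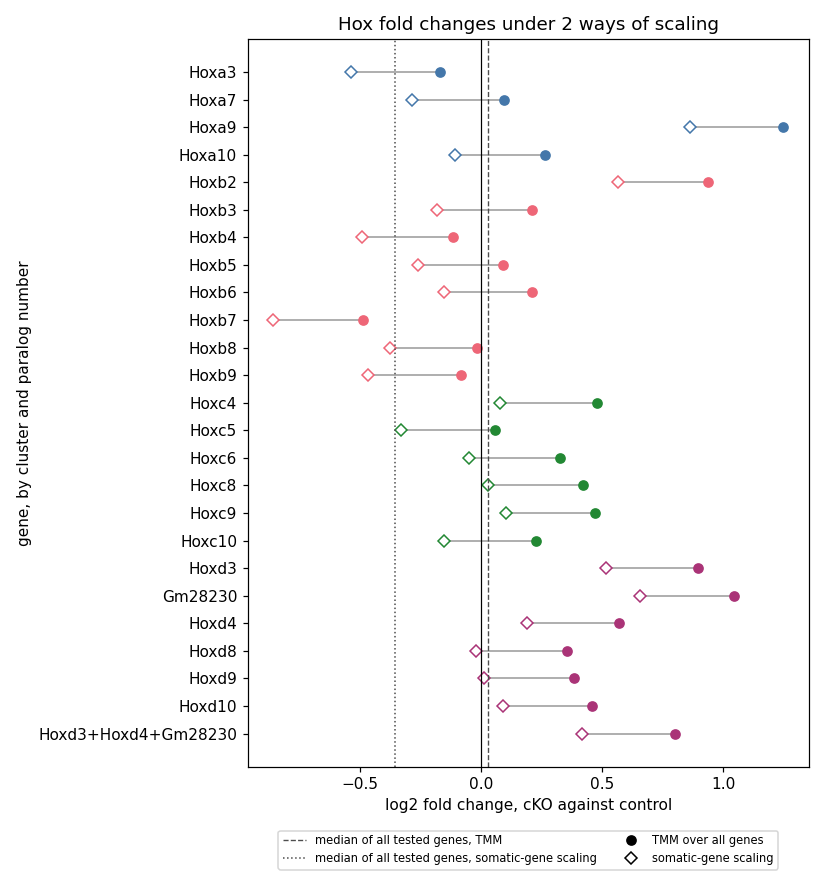
Log2 fold change of each tested Hox row, and of the sum of Hoxd3, Hoxd4 and Gm28230, with all-gene TMM scaling (filled circles) and with scaling on somatic marker genes (open diamonds); dashed and dotted lines mark the median of all tested genes in each, at 0.03 and -0.36. The sum lies at 0.80 and 0.42, and Hoxd8 at 0.36 and -0.02.

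The Hoxd3 and Hoxd4 locus was higher in the cKO libraries. Its call as a sum, chosen after seeing the data, held under each alternative run on the same libraries. Hoxd3 and Hoxd4 encode central-anterior Hox factors that pattern the cervical vertebrae and hindbrain. By GENCODE M21, Gm28230 shares 63.1% of its 3527 exonic bases with Hoxd3 and 32.7% with Hoxd4 on the same strand, and Hoxd4 shares 13.2% of its own with Hoxd3. Reads from these exons can be assigned to any of the 3 rows, so the single values are uncertain. The 250 bases before the RefSeq transcription start of Hoxd3 and Hoxd4 are shown, since both genes belong to the locus with the called difference, trimmed where an exon of another model begins; with them stand Hoxd8, the highest Hox gene, and Hoxa9, the other called gene. RefSeq promoter windows (GRCm38.p6) were found for 22 of the 39 Hox genes. Capitals mark matches to 5 short motifs named after the sequences.
Hoxd3, chr2:74711743-74711926, plus strand: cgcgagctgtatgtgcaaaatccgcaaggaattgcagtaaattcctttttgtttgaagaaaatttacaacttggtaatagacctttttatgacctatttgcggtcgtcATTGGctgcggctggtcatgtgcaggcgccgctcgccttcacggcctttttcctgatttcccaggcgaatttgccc
Hoxd4, chr2:74721728-74721977, plus strand: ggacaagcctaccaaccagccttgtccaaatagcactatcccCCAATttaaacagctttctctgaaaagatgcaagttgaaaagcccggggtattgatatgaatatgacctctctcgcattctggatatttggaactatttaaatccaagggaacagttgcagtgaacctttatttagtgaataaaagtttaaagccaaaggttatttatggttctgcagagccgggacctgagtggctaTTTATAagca
Hoxd8, chr2:74704365-74704614, plus strand: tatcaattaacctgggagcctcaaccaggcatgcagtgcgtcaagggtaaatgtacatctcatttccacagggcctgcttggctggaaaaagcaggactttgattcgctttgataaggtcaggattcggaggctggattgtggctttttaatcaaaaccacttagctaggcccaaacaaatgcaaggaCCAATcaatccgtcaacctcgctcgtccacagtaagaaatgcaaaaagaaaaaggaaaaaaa
Hoxa9, chr6:52227371-52227620, minus strand: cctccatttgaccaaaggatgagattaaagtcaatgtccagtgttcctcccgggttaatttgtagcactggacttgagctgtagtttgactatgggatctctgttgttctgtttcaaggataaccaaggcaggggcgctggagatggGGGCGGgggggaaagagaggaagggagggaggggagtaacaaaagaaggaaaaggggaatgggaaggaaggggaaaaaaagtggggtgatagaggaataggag
The motifs, searched on both strands, were the PBX-HOX motif TGATNNAT, the MEIS motif TGACAG, the CCAAT box CCAAT, the TATA box TATAAA and the GC box GGGCGG. The stretches of Hoxd3, Hoxd4 and Hoxd8 each hold a CCAAT box match, that of Hoxd4 also a TATA box match close to its start site, and that of Hoxa9 a GC box match; no 2 matches overlap in them. Over whole windows of 300 bases, CCAAT was found in 15 of 24 Hox windows (62.5%) and in 37.4% of all 32851 promoter windows. TGATNNAT was found in 4 of 24 (16.7%, against 8.85%), TGACAG in 2 of 24 (8.33%, against 19.2%), TATAAA in 4 of 24 (16.7%, against 13.6%) and GGGCGG in 10 of 24 (41.7%, against 35.7%). The Hoxd3 window holds 20 CpG dinucleotides and those of Hoxd4 and Hoxa9 hold 4 each; the median was 14.5 in Hox windows and 7 in all. A match describes the letters only.

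Hoxd3 had 3.11, 3.01 and 1.80 CPM in controls, against 4.81, 4.46 and 5.58 CPM in cKO libraries. The groups did not overlap, and the log2 fold change was 0.90 (SE 0.254, edgeR adjusted p = 0.0320). Gm28230 had 2.53, 2.79 and 4.69 CPM in controls and 5.46, 7.63 and 7.44 CPM in cKO libraries, also without overlap (log2 fold change 1.04, SE 0.270, edgeR adjusted p = 0.0233). Control library 3 was the lowest library for Hoxd3 and the highest control for Gm28230. Hoxd4 itself had 6.12, 5.74 and 4.15 CPM in controls and 9.10, 7.57 and 7.17 CPM in cKO libraries, separated but not past the threshold (0.57, SE 0.201, edgeR adjusted p = 0.0664). Leaving out 1 library moved each call: Hoxd3 missed the threshold when control 3 or any of the cKO libraries was dropped (adjusted p = 0.0868, 0.0912, 0.0792 and 0.110 without control 3 and cKO 1, 2 and 3). Gm28230 missed it without control 2, cKO 2 or cKO 3 (0.0536, 0.0949 and 0.0816). Hoxd4 passed without control library 1 (0.66, edgeR adjusted p = 0.0331), a run that called 36.1% of all tested genes, against 25.0% in the main test.

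Summed to 1 row, an alternative chosen after seeing the data, the locus varied less between libraries of a group. The sum includes Hoxd3 and Gm28230, already called in the same 6 libraries, so its call is not separate support for a difference. The sum was 11.8, 11.5 and 10.6 CPM in controls and 19.4, 19.7 and 20.2 CPM in cKO libraries, or 11.3 ± 0.598 and 19.7 ± 0.412 CPM (mean ± SD, n = 3 each). The SD of each of the 3 rows alone was larger, from 0.571 to 1.20 CPM, at lower means. The sum rose 1.74-fold (log2 fold change 0.80, SE 0.115, 95% interval 0.54 to 1.06, edgeR adjusted p = 0.00253). It passed with each library left out in turn (0.76 to 0.82, adjusted p = 0.000794 to 0.0195) and with scaling on somatic marker genes (0.42, adjusted p = 0.0179), where single rows did not. Within the locus, Hoxd4 took 52.0%, 49.8% and 39.0% of the counts in controls and 47.0%, 38.5% and 35.5% in cKO libraries, so the split between rows varied between libraries of the same group.

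**Figure D4:**
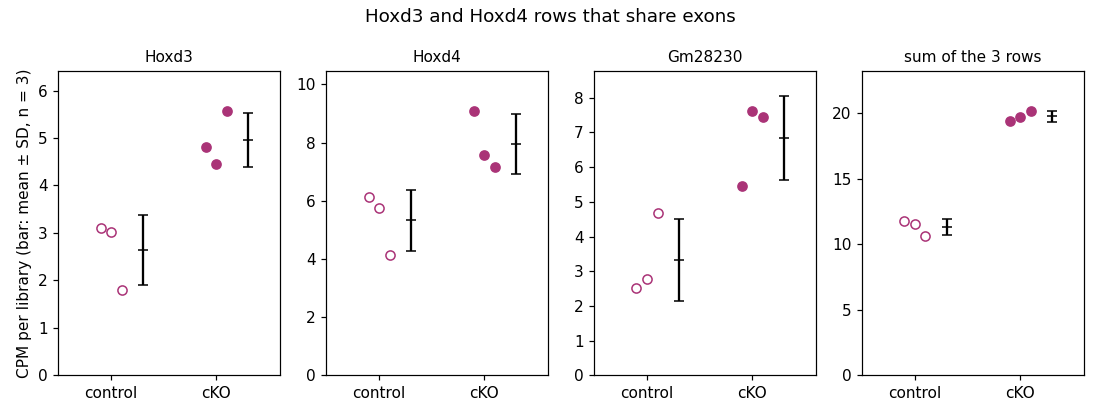
CPM of Hoxd3, Hoxd4 and Gm28230, which share exons, and of their sum, in each library (open points control, filled points cKO; bars are mean ± SD, n = 3; each vertical axis starts at 0). The sum lies at 10.6 to 11.8 CPM in controls and 19.4 to 20.2 CPM in cKO libraries.

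The other 3 genes of cluster D that were tested, Hoxd8, Hoxd9 and Hoxd10, had positive values that did not pass. Hoxd9 and Hoxd10 act in the lumbar spinal cord and limb, and Hoxd8 neighbours them in the cluster. Hoxd8 had 33.5, 23.6 and 28.0 CPM in controls and 32.6, 37.8 and 38.5 CPM in cKO libraries (log2 fold change 0.36, SE 0.139, edgeR adjusted p = 0.0904). Hoxd9 had 30.7, 19.7 and 20.0 CPM in controls and 29.5, 28.4 and 34.1 CPM in cKO libraries (0.38, SE 0.177, adjusted p = 0.142). Hoxd10 had 13.7, 7.14 and 10.8 CPM in controls and 15.0, 14.9 and 13.7 CPM in cKO libraries (0.46, SE 0.216, adjusted p = 0.148). In each of these genes control library 1 was the highest control and lay within or beside the cKO range, so the groups overlapped. Without control library 1 all 3 passed (0.47, 0.60 and 0.67, edgeR adjusted p = 0.00980, 0.00238 and 0.0160). Calls rose across all tested genes in that run, to 36.1% in either direction and 16.4% higher, against 25.0% and 11.1% in the main test. Control library 1 also had the lowest sum of pan-germ-cell markers among controls, 1640 CPM against 2132 and 2115, and the highest of Leydig cell markers, 1214 CPM against 698 and 689. Its Sertoli cell sum was the highest control too, its peritubular myoid sum the lowest, and its stroma and endothelial sums lay between those of the other controls; the part of these in the Hox values was not tested.

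Cluster A was low throughout, and Hoxa9 was its 1 called gene. Hoxa9, an abdominal-level gene also used in blood progenitors, had 9, 10 and 16 counts in controls and 29, 31 and 15 in cKO libraries, or 0.475, 0.558 and 0.962 CPM against 1.89, 1.82 and 0.996 CPM. The third cKO library was at nearly the level of the highest control. Its log2 fold change was 1.25 (SE 0.399, edgeR adjusted p = 0.0489), and the call was lost with each library left out in turn (1.03 to 1.59, adjusted p = 0.0515 to 0.166) and in 8 of the other alternatives (adjusted p = 0.0524 to 0.121). Hoxa7 was at 1.18 ± 0.174 and 1.26 ± 0.131 CPM (mean ± SD, n = 3 each; 0.09, adjusted p = 0.833), with an interval of -0.56 to 0.74. Hoxa10, needed in the developing uterus and in testis descent, had 10, 4 and 13 counts in controls and 14, 11 and 4 in cKO libraries (0.26, interval -1.01 to 1.53). Hoxa3, of the third pharyngeal arch, had a log2 fold change of -0.17 in counts, while its mean FPKM was 0.347 in controls and 0.483 in cKO libraries; 12 counts were listed as 0.26 FPKM in cKO library 2 and as 0.87 in cKO library 3.

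The untested members of cluster A include Hoxa4, whose transcripts are known from male germ cells. It had 9, 9 and 7 counts in controls and 5, 6 and 4 in cKO libraries, lower in each cKO library, but with the filter on low counts removed it stood at -0.56 on the log2 scale (edgeR adjusted p = 0.515). Hoxa5, one of the genes spelled in capitals, had 8, 6 and 2 counts against 10, 10 and 10 (without the filter 1.07, adjusted p = 0.217). The overlapping model Gm28308 had 0, 0 and 0 against 4, 4 and 0 counts (without the filter adjusted p = 0.122), and 64.1% of its exonic bases lie in Hoxa3 and 35.5% in Hoxa2. Hoxa2, Hoxa6, Hoxa11 and Hoxa13 had 15, 5, 3 and 2 counts over the 6 libraries. At these counts only large differences could be detected.

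None of the 8 tested genes of cluster B passed (edgeR; 1 had an unadjusted p under 0.05, and DESeq2 and limma-voom called 0), and the median was 0.04. Hoxb9, a thoracic-level gene and the fourth highest Hox gene here, had 19.3, 18.4 and 14.8 CPM in controls and 14.4, 18.8 and 16.3 CPM in cKO libraries. The groups overlapped, and the log2 fold change was -0.08 with a 95% interval of -0.42 to 0.26 (SE 0.151, edgeR adjusted p = 0.718). With scaling on somatic genes it was called lower, at -0.47 (edgeR adjusted p = 0.0360), and Hoxb3, Hoxb5 and Hoxb6 turned negative. Its paralog Hoxd9 lay at 0.38, with an interval of -0.02 to 0.79; the difference between these paralogs was not tested. Hoxb2, of the hindbrain, had 1.06, 0.669 and 0.781 CPM in controls and 2.21, 1.17 and 1.46 CPM in cKO libraries (0.94, SE 0.356, adjusted p = 0.0837), separated but not past the threshold. Hoxb7 was at 1.94 ± 0.499 and 1.38 ± 0.455 CPM (-0.49, adjusted p = 0.322) and Hoxb3 at 2.42 ± 0.365 and 2.79 ± 0.763 CPM (0.21, adjusted p = 0.610). The annotation places the antisense gene Hoxb3os over 52.9% of the exonic bases of Hoxb3 and 27.3% of those of Hoxb2, and use of strand in counting is not given in the sources used here. Hoxb4, Hoxb5, Hoxb6 and Hoxb8 had 64 to 109 counts over the 6 libraries and values of -0.12, 0.09, 0.21 and -0.02.

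Cluster C, which starts at paralog 4, had 0 of 5 tested rows past the threshold by the rule and 0 of 6 with Hoxc6 (edgeR, 0 at an unadjusted p under 0.05; DESeq2 and limma-voom also called 0), with all 6 values between 0.06 and 0.48. With scaling on somatic genes Hoxc5, Hoxc6 and Hoxc10 turned negative. Hoxc8, of the thoracic and brachial spinal cord, had 3.38, 4.13 and 3.61 CPM in controls and 4.42, 4.81 and 5.65 CPM in cKO libraries. Each cKO library was above each control, and the log2 fold change was 0.42 (SE 0.200, edgeR adjusted p = 0.151). Hoxc4 had 2.95, 4.79 and 3.01 CPM against 4.42, 5.58 and 4.98 CPM (0.48, edgeR adjusted p = 0.179), and passed without control library 2 (0.73, edgeR adjusted p = 0.0436). That run called 29.4% of all tested genes, against 25.0% in the main test. Hoxc6, the highest gene of the cluster, had 8.23, 6.41 and 4.45 CPM against 7.35, 8.69 and 7.97 CPM (0.33, adjusted p = 0.315). Hoxc10, a motor neuron and hindlimb gene, was at 2.71 ± 0.338 and 3.19 ± 0.433 CPM (0.23, adjusted p = 0.497). Hoxc5 and Hoxc9 were at 0.06 and 0.47.

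By paralog number, with Hoxc6 included, the called rows fell in groups 3 (1 of 3 tested), 4 (1 of 4) and 9 (1 of 4). The background was 25.0% of all tested genes called in either direction and 11.1% called higher. The calls in groups 3 and 4 are those of Hoxd3 and Gm28230, rows that share exons. All tested rows of groups 2, 5, 6, 7, 8 and 10 missed the threshold. The median was 0.55 over the 4 tested rows of paralogs 1 to 3, 0.21 over 13 rows of paralogs 4 to 8 and 0.38 over 7 rows of paralogs 9 and 10. Group 9 ran from -0.08 for Hoxb9 to 1.25 for Hoxa9, and group 4 from -0.12 for Hoxb4 to 1.04 for Gm28230, whose exons overlap Hoxd3 more than Hoxd4; differences within a group were not tested. These medians are descriptions, and the groups were not compared by a test.

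**Figure D5:**
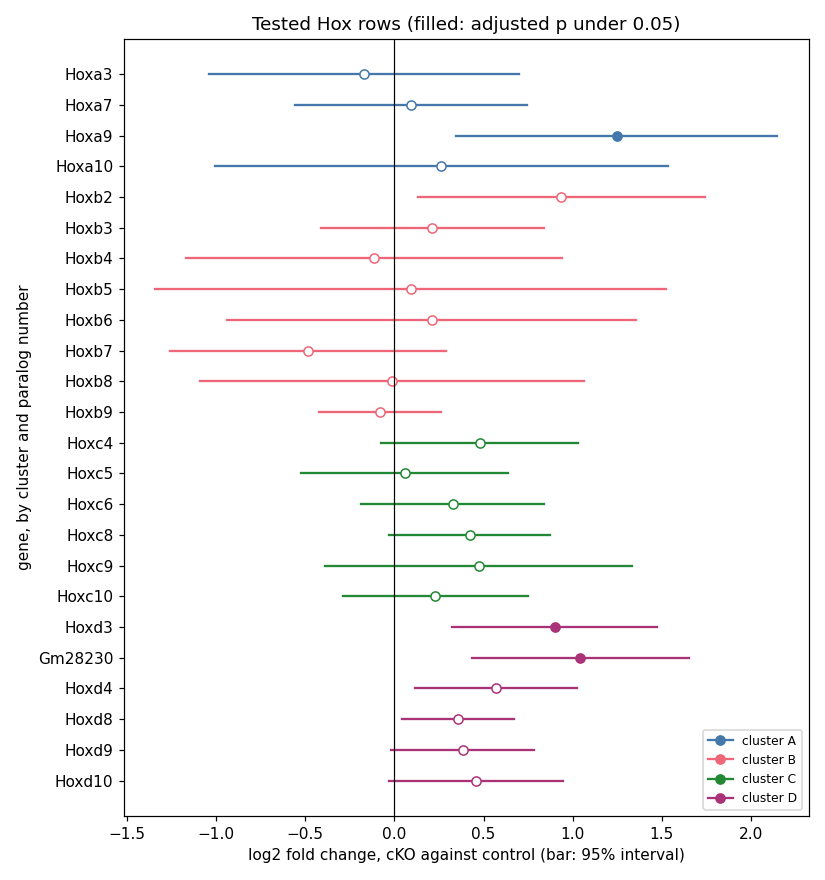
Log2 fold change of cKO against control with its 95% interval for the 24 tested Hox rows, ordered by cluster and paralog number; filled points passed an adjusted p of 0.05. All 12 values of clusters C and D are positive with this scaling, and 4 of them (Hoxc5, Hoxc6, Hoxc10 and Hoxd8) turn negative with scaling on somatic genes.

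Hox proteins bind DNA together with TALE homeodomain cofactors of the PBX, MEIS and PKNOX families. Of 9 tested, 3 rose and 2 fell, where the background was 11.1% higher and 13.9% lower among all tested genes. Meis1 rose by 0.37 and Meis2 by 0.80 on the log2 scale (edgeR adjusted p = 0.0295 and 0.0276); both were named after their values were seen. With scaling on somatic genes neither passed (Meis2 0.41, and Meis1 turned to -0.01), and each missed the threshold with any cKO library dropped (edgeR adjusted p = 0.0759 to 0.118). Meis1 also missed it without control 3 (adjusted p = 0.111) and with total-count scaling (0.0568). Pbx2 fell from 82.1 ± 2.62 to 64.8 ± 1.79 CPM (-0.34, edgeR adjusted p = 0.0199), and Pbx4, known for its expression in testis, from 1.62 ± 0.331 to 0.572 ± 0.207 CPM (-1.49, adjusted p = 0.0187). Both calls held with somatic scaling, and both were lost without control library 3, cKO library 1 or cKO library 2, that of Pbx2 also without cKO library 3.

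Regulators that set Hox domains in the embryo were taken from 4 lists, whose counts of called genes stand beside 25.0% of all tested genes called. Polycomb complexes keep silent Hox genes off; of 11 genes of complex 2, Eed, its histone-binding subunit, fell from 70.3 ± 0.647 to 44.0 ± 3.19 CPM (-0.68, edgeR adjusted p = 0.00200), Phf1 fell by 0.35 on the log2 scale (adjusted p = 0.0376), and 9 did not pass. Of 19 genes of complex 1, 5 fell and 2 rose; Pcgf5 fell from 84.7 ± 12.2 to 35.4 ± 4.66 CPM and Cbx2, a chromobox subunit whose loss shifts axial identity, from 83.5 ± 10.9 to 48.8 ± 4.80 CPM (edgeR adjusted p = 0.000892 and 0.00371). The others of this list, named after their values were seen, were Bmi1, Cbx8 and Pcgf1, which fell, and Cbx6 and Phc3, which rose with all-gene scaling only (0.34 and 0.62, against -0.04 and 0.21 with scaling on somatic genes). Of 12 genes of the MLL complexes, which keep active Hox genes on, Wdr5 and Ash2l fell, by 0.59 and 0.37 on the log2 scale (adjusted p = 0.00281 and 0.0133), and 10 did not pass. Phf1 missed the threshold when control 3 or any of the cKO libraries was dropped (adjusted p = 0.0979 to 0.130), and Ash2l did so in the same 4 cases (0.0516 to 0.0856). Retinoic acid acts on low-numbered Hox genes; of 15 tested pathway genes, 3 rose and 2 fell, Crabp1, a retinoic acid binding protein gene, from 42.0 ± 4.69 to 7.10 ± 2.51 CPM and the receptor gene Rarg from 31.2 ± 6.23 to 13.5 ± 1.22 CPM (edgeR adjusted p = 0.000303 and 0.00203). The 3 that rose, also named after their values were seen, were the degrading enzyme gene Cyp26b1 (0.60), the retinol transporter gene Stra6 (0.35) and the receptor gene Rara (0.36); with scaling on somatic genes none passed, and Stra6 and Rara stood at -0.03 and -0.02. The Cdx genes, activators of central Hox genes, were too low to test, with 0.180 to 0.317 summed CPM in controls and 0.195 to 0.664 in cKO libraries. Whether the differences in these 4 lists bear on the Hox values was not tested, nor was the part of the lower germ-cell RNA in them.

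Of 9 tested genes that flank the clusters, 2 rose and 1 fell, with a median of 0.09. Among all tested genes 25.0% were called and the median was 0.03, so these values lie near the background. Cbx5, which encodes a heterochromatin protein, was at 242 ± 30.7 and 337 ± 17.2 CPM (0.48, edgeR adjusted p = 0.0163), and Calcoco1 at 113 ± 1.54 and 142 ± 6.69 CPM (0.33, adjusted p = 0.0245); both flank cluster C. Neither passed with scaling on somatic genes, where Cbx5 stood at 0.08 and Calcoco1 turned to -0.06, Calcoco1 also missed the threshold with total-count scaling (adjusted p = 0.0566), and both missed the threshold when control 3 or any of the cKO libraries was dropped. Skap2, beside cluster A and named after its value was seen, fell by 0.34 on the log2 scale (edgeR adjusted p = 0.0497). Evx1, at the other end of cluster A, was at 0 in all libraries, and Evx2, beside Hoxd13, had 1 count in each of 2 controls. Of 12 listed antisense and long non-coding genes of the Hox clusters, 0 had a row in the table used here, so their transcripts were not analysed.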

How the data were processed

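Total RNA of whole testes was made into libraries with an mRNA kit, per the labels' protocols, and 3 control and 3 cKO libraries were compared. The authors deposited 1 table of estimated counts per gene, whole numbers that sum to 15407007 to 18372964 per library, and FPKM values per gene, per the file headers. Several genes have a count of 0 with an FPKM above 0, so the deposited counts appear to be rounded estimates. StringTie 1.3.1 and RSEM stand in the submitters' processing notes, with no role stated. How reads were aligned, on which build and annotation, and whether strand was used is not given in the sources used here, and fragments shared by overlapping genes can be split in either unit.

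Genes were filtered with edgeR's filterByExpr (minimum count 10), which kept 14424 of 22274 and left out 0.0630% of counts. Libraries were TMM-scaled and tested with edgeR 4.0.16 (quasi-likelihood, 2-sided, R 4.3.3), with Benjamini-Hochberg adjustment over all tested genes and a threshold of 0.05; the test was first run on simulated data. Intervals cover 95%. FPKM served only to compare levels between genes, without a test. Alternatives were DESeq2 1.42.0, limma-voom (limma 3.58.1), other scalings and filters, a replicate block and leaving out each library. Rows were named through gene IDs, 22219 of which have a reference symbol. Hox rows were taken by symbol; Hox genes called in the main test and the 3 highest by FPKM in each cluster are described in full, and from each other gene list the 2 genes with the smallest p. Members, lists and rules were chosen with earlier results of these data known. Exon overlap came from GENCODE M21 (GRCm38) and promoters from RefSeq GRCm38.p6; the build behind the counts is unknown, so both serve as annotation only. Single values of 2 genes of the lists are not reported here.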

Additional observations from a re-analysis of the deposited data

How the results depend on the processing

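Hoxd3 and Gm28230 were the 2 Hox rows called higher with DESeq2, limma-voom, RLE, upper-quartile or total-count scaling, and with no filter or a stricter one (17 Hox rows tested), none lower. Scaling on somatic genes gave 0 higher, 1 lower and a median of -0.11, and turned Hoxa7 to -0.29, Hoxa10 to -0.11, Hoxb3 to -0.18, Hoxb5 to -0.26, Hoxb6 to -0.15, Hoxc5 to -0.33, Hoxc6 to -0.048, Hoxc10 to -0.15, Hoxd8 to -0.018, Meis1 to -0.0093 and Calcoco1 to -0.059. Hoxb8 was at 0.0080 with limma-voom and Hoxc5 at -0.0065 with total-count scaling. Leaving out 1 library gave 0 to 6 Hox rows higher (6 without control 1, 2 without control 2, 1 each without control 3 or cKO 1, 0 without cKO 2 or cKO 3), 0 lower in each case, and a median of 0.20 to 0.47. Signs turned in the ranges of Hoxa10 (-0.12 to 0.68), Hoxb4 (-0.64 to 0.18), Hoxb5 (-0.36 to 0.98), Hoxb6 (-0.063 to 0.66), Hoxb8 (-0.44 to 0.47), Hoxb9 (-0.19 to 0.0088) and Hoxc5 (-0.092 to 0.15). With the replicate block, 1 Hox row was higher, Gm28230; Hoxd3 (adjusted p = 0.0564), Hoxa9 (0.0899), Meis1 (0.0542), Pbx2 (0.0568), Phf1 (0.0857) and Calcoco1 (0.0637) missed the threshold there. Same-numbered libraries did not deviate together (r = -0.07, -0.08 and 0.07), and no control correlated best with its own number. With 3 libraries per group these values cannot exclude pairing, and the labels do not say whether the numbers mark pairs. Across all genes the block called 1248 higher and 1574 lower, and dropping 1 library gave 452 to 2392 higher and 903 to 2863 lower. The cause of these changes was not tested. Depth limits the low members: 3 counts are 0.158 to 0.199 CPM, and 15 of 38 rows were untested.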
